A study of Homo sapiens with 12 samples.

Results

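The ZNF genes of moderate abundance in MOLM-13 cells were all rows of the count table whose name was ZNF followed by a number and at most 1 letter, with a mean CPM (a gene's count over its library's total, scaled to 1000000) of at least 5 across the 12 libraries. There were 288 such genes among 553 ZNF names and 57353 gene names in all, and they are called the members below. The rule used measured levels, so that the members' abundance is a description. Just outside the limit lay ZNF771, ZNF669 and ZNF414 at mean CPM of 4.85, 4.88 and 4.94, and just inside lay ZNF579, ZNF429 and ZNF567 at 5.07, 5.07 and 5.65. Of the members, 4 (ZNF296, ZNF429, ZNF579 and ZNF674) passed the limit only through the quizartinib group in RPMI, since the other 3 groups averaged under 5 CPM. A high level in that group is therefore part of why they are members, and their values are given as a description. Of the other ZNF names, 145 had counts but a mean under 5 CPM and 120 had no count in any library.

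MOLM-13 is an established AML cell line with FLT3-ITD, an internal tandem duplication that keeps the FLT3 receptor kinase active. The cells, with no further genetic change given in the labels (genotype WT), were treated for 15 hr with DMSO (vehicle) or with 3 nM quizartinib (AC220), an inhibitor of FLT3. Treatment took place in RPMI, the regular medium, or in hBMSC-CM, which was RPMI mixed with medium in which HS-5 cells, a line of human marrow stroma, had grown. Poly-A-selected RNA was sequenced from 3 replicates in each of the 4 groups. Libraries held 19966546 to 31546104 counts in total. A gene at 0 counts could still have had 0.0951 to 0.15 CPM, from counting error alone. In hBMSC-CM the first quizartinib replicate and the third vehicle replicate differed most from their groups. The chi-square per gene against the other replicates was 9.8 and 9.45 for the former, where those differed by 3.16, and 10.5 and 6.77 for the latter, where those differed by 3.73. For comparisons that use these libraries, the counts of called members are also given below without them. Fold changes of single genes and results for classes, clusters and lists are printed with them only. The labels do not say whether replicates were separate cultures, so p-values measure the spread between these samples. All work was on 1 cell line at 1 time point and 1 dose of the drug.

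ZNF genes encode proteins with C2H2 zinc fingers, short modules in which a pair of cysteines and a pair of histidines hold a zinc ion and a helix reads bases of DNA or, in some members, RNA. Many of them also carry a KRAB domain, which recruits TRIM28 (KAP1) and through it SETDB1, HP1 proteins and histone deacetylases to silence chromatin, in particular at retroelements. The family grew by tandem duplication, and large clusters of it lie on chromosome 19. Members without KRAB include adaptors of chromatin complexes, activators and proteins that work in RNA processing and translation.

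The repeat that defines the family is shown for ZNF493, the KRAB member with the most fingers among those named for the size of their change (19 fingers), and for ZNF239 (9 fingers), whose RNA fell the most. Each stretch is 84 bases of coding sequence for 1 finger and its linker, 28 residues long, read 5′ to 3′ along the gene's strand from the GENCODE transcripts of GRCh38, with the codons of the 2 cysteines and 2 histidines in capitals. The ZNF493 stretch lies at chr19:21424214-21424297 (plus strand) and the ZNF239 stretch at chr10:43557036-43557119 (minus strand).
ZNF493: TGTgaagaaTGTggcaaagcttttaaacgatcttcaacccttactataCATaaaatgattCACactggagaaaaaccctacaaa
ZNF239: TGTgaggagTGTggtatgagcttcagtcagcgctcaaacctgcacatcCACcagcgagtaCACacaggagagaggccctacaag

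Of the 288 members, 287 were found in the annotation by symbol (ZNF720 was not matched) and 282 were protein coding. A KRAB match was found in 172 members, 110 coding members had none, and 6 had no coding sequence in the annotation. Members held a median of 10 fingers (range 0 to 36), with a median of 11.5 for KRAB members and 7 for the others. Chromosome 19 carried 106 members, of which 86 had a KRAB match. Since the strand setting of the counting was not stated, reads could not be told apart for the 160 members whose exons overlap those of another gene (72 on the same strand, 104 on the opposite strand). Near-identical copies such as the neighbours ZNF587 and ZNF587B can also share reads, so that their split is uncertain. ZNF587B fell with quizartinib in RPMI (−1.05 ± 0.07) and ZNF587 was not called (0.06 ± 0.05, edgeR adjusted p = 0.29).

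By level per library, the 5 most abundant members were ZNF207, ZNF106, ZNF638, ZNF521 and ZNF451. ZNF207 (BuGZ), a protein of mitotic spindle assembly and splicing, was at 372 to 383 CPM in vehicle-treated cells in RPMI and 334 to 358 CPM with quizartinib, a log2 change of −0.14 ± 0.04 (SE). ZNF106, an RNA-binding protein, was at 302 to 309 CPM and 293 to 300.1 CPM in the same groups, which did not overlap but gave an adjusted p of 0.485 by edgeR's test. ZNF638, which binds unintegrated retroviral DNA and silences it, went from 273 to 291 CPM up to 314 to 348 CPM (0.22 ± 0.04). ZNF451, a SUMO ligase, lay between 206 and 230 CPM in all 12 libraries and was called in none of the 5 comparisons. Of these 5, ZNF521 alone changed by 2-fold in any comparison, and it is described below. Here and below, CPM of single genes were scaled by TMM factors.

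The comparison of quizartinib with vehicle in RPMI addressed the response to FLT3 inhibition in regular medium. More members were higher than lower with the drug. By edgeR's quasi-likelihood test (two-sided, Benjamini-Hochberg adjusted p under 0.05 over all 12998 tested genes), 147 of 288 members were higher and 72 were lower. That is 51% and 25%, where 40.1% of all tested genes were higher and 39.2% were lower. The median log2 fold change of the members was 0.16, against 0.02 over all tested genes and −0.03 over the 10381 tested genes of at least 5 CPM. Members took 1.01% ± 0.0215 (SD, n = 3) of each library's counts in the vehicle group. In the quizartinib group they took 1.17% ± 0.0326 (SD, n = 3). These shares are of unscaled counts, so that they cannot be set beside the TMM-scaled fold changes as sizes. The split between higher and lower members depended on the scaling, with 169 higher and 61 lower under upper-quartile factors and 121 higher and 92 lower when low-count genes were kept. The members' median was 0.19 above that of genes of at least 5 CPM, a gap that a change of scaling cannot alter.

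**Figure D1:**
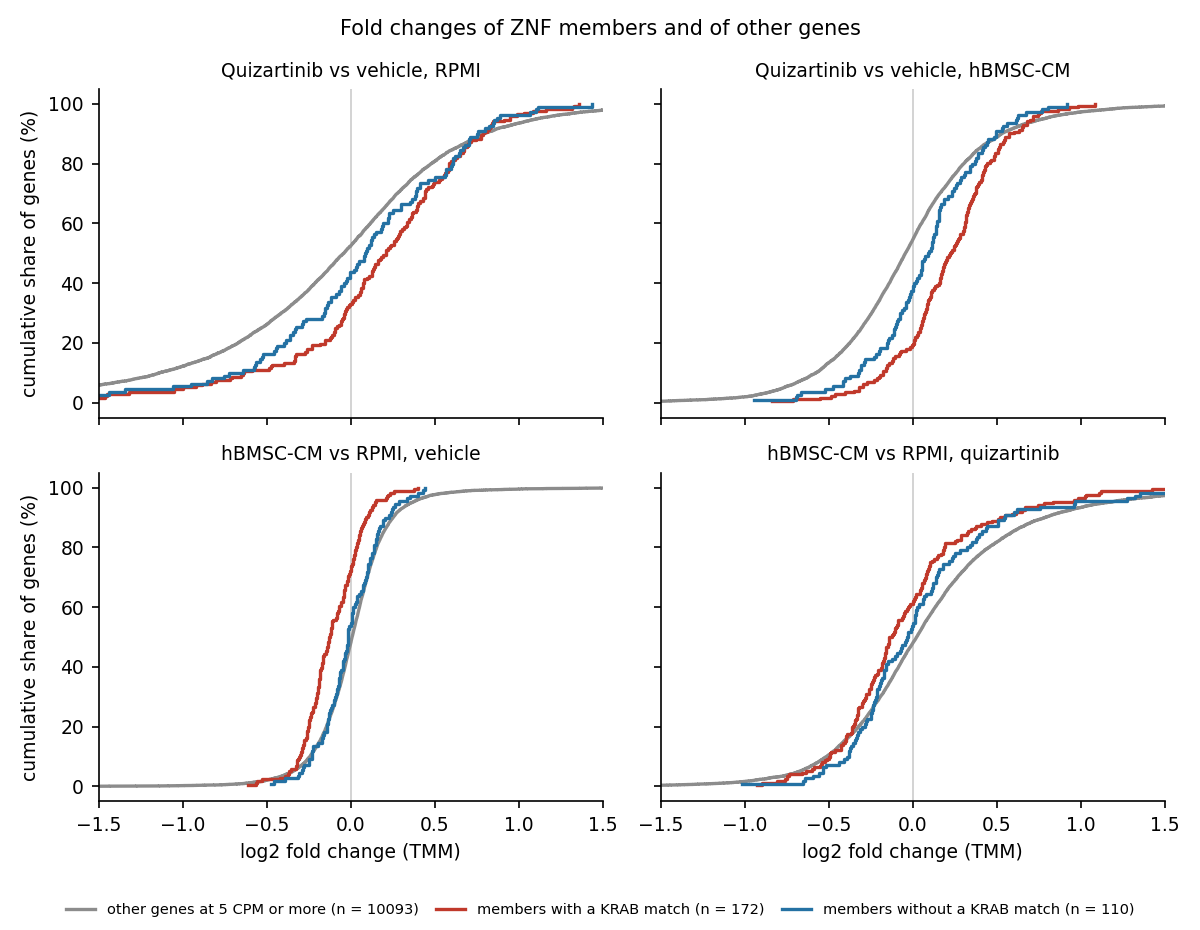
Cumulative share of genes (y axis, %) against log2 fold change (x axis, shown from −1.5 to 1.5) in the 4 pairwise comparisons, for members with a KRAB match (n = 172), members without (n = 110) and other genes of at least 5 CPM. The KRAB curve lies right of the grey curve over most of its range for quizartinib and left of it in its middle for hBMSC-CM, with medians of 0.21 and 0.23 for the drug in the 2 media.

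Of the 288 members, 14 fell and 10 rose by at least 2-fold. Among the 12998 tested genes 1536 fell and 1252 rose by as much, and among the 10381 of at least 5 CPM 1248 fell and 661 rose. The largest falls were those of ZNF239, ZNF367, ZNF485 and ZNF593. ZNF239 (MOK2), which binds both DNA and RNA, lies at chr10:43556344-43574618 on the minus strand and was at 10.6, 10.3 and 10.6 CPM in the vehicle libraries in RPMI. With quizartinib it was at 1.28, 1.11 and 0.781 CPM, so that the groups were far apart (log2 change −3.28 ± 0.14 (SE), adjusted p = 5.9e-15 by edgeR). In hBMSC-CM the same gene was at 13.3, 14.5 and 14.9 CPM with vehicle and 9.71, 8.25 and 8.11 CPM with quizartinib. It therefore kept most of its level in conditioned medium, and no quizartinib library in hBMSC-CM came near those in RPMI.

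ZNF485, a KRAB member, is the next member along chromosome 10 (chr10:43606419-43617904, plus strand). It was at 14.2, 16.8 and 14.1 CPM with vehicle in RPMI and 3.18, 3.02 and 3.08 CPM with quizartinib (−2.28 ± 0.10, adjusted p = 1.29e-14). In hBMSC-CM it was at 17.1, 16.7 and 18.9 CPM with vehicle and 12.6, 12.8 and 12.7 CPM with quizartinib. The pattern of these neighbours was alike, while ZNF32, the member that follows them (looked up after their values were seen), was at 15.8, 16.1 and 15.8 CPM with vehicle in RPMI and 16.5, 17.2 and 14.8 CPM with quizartinib. ZNF32 was not called in RPMI (log2 change 0.03, adjusted p = 0.751).

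ZNF367, with 2 fingers and no KRAB match, had the second largest fall: 49.3, 54.2 and 50.5 CPM with vehicle in RPMI against 9.23, 9.25 and 9.62 CPM with quizartinib (−2.46 ± 0.06, adjusted p = 1.1e-18). In hBMSC-CM it went from 44.7, 47.1 and 46.5 CPM to 24.1, 22.9 and 24.6 CPM, a smaller fall (−0.95 ± 0.06). Of the 3 members of the list for ribosomes and translation, 2 fell and 1 was not called. ZNF593, a nuclear factor in maturation of the large ribosomal subunit, fell from 32.4, 30.5 and 35.6 CPM to 7.88, 9.98 and 9.77 CPM in RPMI (−1.83 ± 0.08, adjusted p = 1.79e-14). ZNF598, the ubiquitin ligase that marks collided ribosomes, fell from 99.4, 97.6 and 102.3 CPM to 43.6, 51.5 and 48.7 CPM (−1.06 ± 0.06, adjusted p = 3.17e-13). ZNF622, another maturation factor of the large subunit, was at 51.2 to 52.6 CPM and 50.3 to 51.3 CPM (adjusted p = 0.667).

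The other named members that fell in RPMI were ZNF749 (−1.76), ZNF114 (−1.53), ZNF584 (−1.46), ZNF202 (−1.45), ZNF692 (−1.44) and ZNF232 (−1.34), all with a SE of 0.11 or less. ZNF202, a SCAN and KRAB repressor of lipid transport genes, was at 29, 29 and 27 CPM with vehicle and 10.9, 10.6 and 9.48 CPM with quizartinib. ZNF692, a C2H2 protein without KRAB, was at 48.3, 47.6 and 48.5 CPM and at 19.7, 17.4 and 16.1 CPM. ZNF473 (ZFP100), a component of histone pre-mRNA processing, had 18 fingers and fell from 63.4 to 67.8 CPM down to 26.4 to 27 CPM (−1.32 ± 0.06). For each of these genes the vehicle and quizartinib libraries in RPMI did not overlap.

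The largest rises were those of ZNF385A, ZNF846, ZNF436 and ZNF555. ZNF385A (HZF), an RNA-binding protein and partner of p53, was at 10.3, 8.76 and 8.85 CPM with vehicle in RPMI and 22.9, 26.7 and 26.3 CPM with quizartinib (1.44 ± 0.12, adjusted p = 8.89e-10). ZNF846, a KRAB member of chromosome 19, rose from 7.42, 7.71 and 8.48 CPM to 22.8, 19.1 and 18.2 CPM (1.36 ± 0.09). ZNF436, a KRAB member of chromosome 1, rose from 18, 18.5 and 17.4 CPM to 47.5, 45.5 and 42.6 CPM (1.33 ± 0.06). All 3 were thus more than 2-fold higher, with no overlap between the groups.

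ZNF521, a cofactor known from hematopoietic stem and progenitor cells, combined a high level with a large rise. It was at 158, 164 and 158 CPM with vehicle in RPMI and 340.0, 348 and 341 CPM with quizartinib (1.10 ± 0.04, adjusted p = 3.08e-16). In hBMSC-CM it went from 152, 151 and 149.8 CPM to 239.5, 237 and 223 CPM (0.63 ± 0.04), so that the 2 vehicle groups were close to each other and the 2 quizartinib groups were not. The remaining named rises in RPMI were ZNF555 (1.32), ZNF251 (1.16), ZNF296 (1.12), ZNF688 (1.08), ZNF277 (1.07) and ZNF429 (1.03), with SEs of 0.06 to 0.15. ZNF296 and ZNF429 are members only through this quizartinib group. Without the 4 such members, 143 of 284 were higher and 72 lower.

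**Figure D2:**
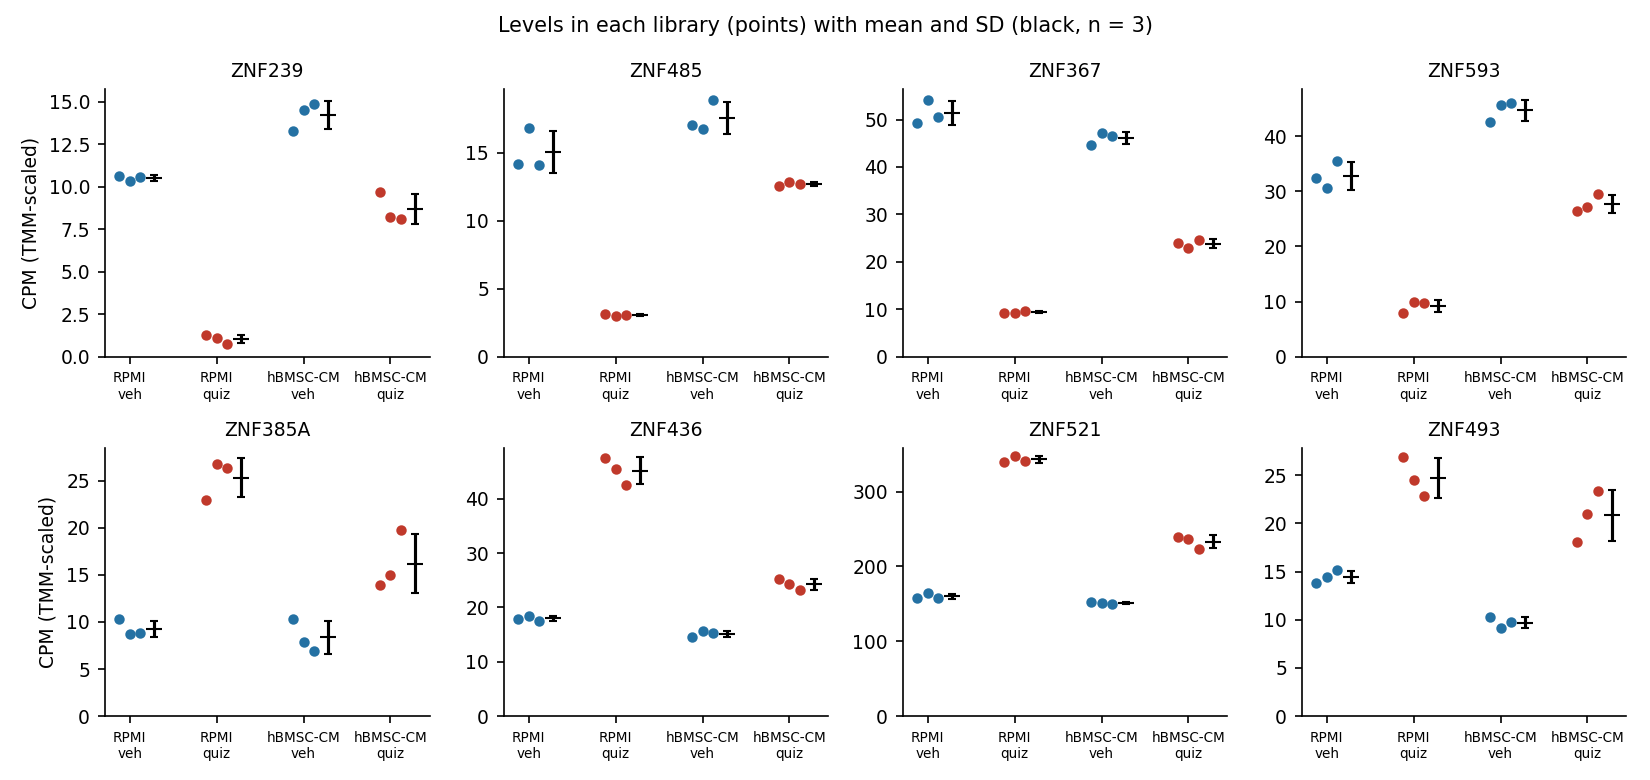
Level in each library (points, CPM scaled by TMM; y axes start at 0) with mean and SD (black, n = 3) for 8 members in the 4 groups, vehicle in blue and quizartinib in red. In the upper row the 3 quizartinib libraries in RPMI lie below all others, with ZNF239 at 0.781 to 1.28 CPM, and in the lower row, except for ZNF493, they lie above all others.

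Promoter stretches are shown for the 3 largest falls and the 3 largest rises in RPMI with an entry in the RefSeq promoter table (GRCh38.p14) and a chromosome whose sequence is printed here. Each is the 250 bases before the annotated start, 5′ to 3′ along the gene's strand, and capitals mark matches on either strand to CCGGAAG (a motif of ETS factors), CCAAT (the NF-Y box) or CACGTG (the E-box of MYC and related factors). The falls were ZNF239 (chr10:43574617-43574866, minus strand), ZNF367 (chr9:96418371-96418620, minus strand) and ZNF485 (chr10:43606188-43606437, plus strand).
ZNF239: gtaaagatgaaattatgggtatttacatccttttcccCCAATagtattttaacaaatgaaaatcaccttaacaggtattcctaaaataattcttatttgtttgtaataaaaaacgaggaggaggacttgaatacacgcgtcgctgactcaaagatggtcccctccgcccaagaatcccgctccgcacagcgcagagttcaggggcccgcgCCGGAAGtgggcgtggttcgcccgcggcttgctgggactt
ZNF367: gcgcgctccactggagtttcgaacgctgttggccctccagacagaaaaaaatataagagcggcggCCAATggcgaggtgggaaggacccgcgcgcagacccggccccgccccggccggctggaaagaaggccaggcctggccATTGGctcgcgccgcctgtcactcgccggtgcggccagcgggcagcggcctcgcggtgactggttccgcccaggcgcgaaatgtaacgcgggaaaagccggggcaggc
ZNF485: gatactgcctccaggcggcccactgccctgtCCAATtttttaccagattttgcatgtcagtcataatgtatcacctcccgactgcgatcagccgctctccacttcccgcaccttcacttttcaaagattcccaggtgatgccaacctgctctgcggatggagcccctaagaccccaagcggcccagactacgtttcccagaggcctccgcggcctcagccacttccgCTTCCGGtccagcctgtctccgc
The rises were ZNF846 (chr19:9768739-9768988, minus strand), ZNF436 (chr1:23369837-23370086, minus strand) and ZNF555 (chr19:2841225-2841474, plus strand).
ZNF846: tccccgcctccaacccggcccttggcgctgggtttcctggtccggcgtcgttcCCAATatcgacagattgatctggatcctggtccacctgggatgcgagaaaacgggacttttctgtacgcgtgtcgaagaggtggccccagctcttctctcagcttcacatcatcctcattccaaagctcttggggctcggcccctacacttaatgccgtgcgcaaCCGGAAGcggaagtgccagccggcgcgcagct
ZNF436: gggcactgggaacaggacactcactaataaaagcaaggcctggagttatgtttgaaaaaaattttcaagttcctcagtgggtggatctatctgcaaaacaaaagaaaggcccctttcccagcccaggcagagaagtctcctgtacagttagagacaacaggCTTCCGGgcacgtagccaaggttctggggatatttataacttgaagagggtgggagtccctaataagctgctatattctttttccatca
ZNF555: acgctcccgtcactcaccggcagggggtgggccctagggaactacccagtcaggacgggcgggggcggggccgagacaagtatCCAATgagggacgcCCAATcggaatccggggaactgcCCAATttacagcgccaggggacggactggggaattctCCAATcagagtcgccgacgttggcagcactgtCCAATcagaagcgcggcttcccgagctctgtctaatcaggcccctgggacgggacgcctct

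CCGGAAG or its complement began 40 bases before the start in ZNF239, 23 in ZNF485, 32 in ZNF846 and 89 in ZNF436, so that it was present among both falls and rises. ZNF555 held 5 CCAAT matches and no CCGGAAG in this window. Over the 245 members with an entry, counted over the table's whole window of 250 bases before and 50 after the start, 42% had CCGGAAG, against 10.7% of all 27305 promoters and 22.1% of the 7913 promoters of genes of at least 5 CPM. The share was 40.2% in members higher with quizartinib in RPMI, 40.6% in members lower and 47.5% in members not called. CCAAT was found in 46.5% of members, 35.7% of all promoters and 37.5% of those of genes of at least 5 CPM. CACGTG was found in 6.94% of members (7.43% of all promoters, 10.8% of those of genes of at least 5 CPM), in 8 of 64 members that were lower with quizartinib, 8 of 122 that were higher and 1 of 59 not called. None of the 3 motifs contains another, and the matches are a description of letters only.

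The median change was higher in KRAB members than in the others. In RPMI, 93 of 172 KRAB members were higher and 38 lower with quizartinib (median log2 change 0.21), against 49 higher and 34 lower of 110 members without KRAB (median 0.09). In hBMSC-CM the counts were 96 higher and 17 lower (median 0.23) against 46 higher and 20 lower (median 0.09). The number of fingers went with a similar split. Of the 58 members with 15 or more fingers, 42 were higher and 8 lower in RPMI (median 0.36), and 38 were higher and 5 lower in hBMSC-CM (median 0.28). Of the 44 members with 0 to 4 fingers, 21 were higher and 13 lower in RPMI (median 0.12), and 18 were higher and 7 lower in hBMSC-CM (median 0.03). With quizartinib, 40.1% of all tested genes were higher and 39.2% lower in RPMI, and 33.4% and 33.7% in hBMSC-CM. In RPMI, 54.1% of KRAB members were higher and 22.1% lower, against 44.5% and 30.9% of members without KRAB. For 15 or more fingers the shares were 72.4% and 13.8%, and for 0 to 4 fingers 47.7% and 29.5%. The classes by KRAB and by number of fingers overlap, and the differences between them were not tested.

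Named members with long arrays included ZNF493 (19 fingers), ZNF555 and ZNF429 (15 each), ZNF888 (17) and ZNF699 (15). ZNF493 was at 13.9, 14.5 and 15.1 CPM with vehicle and 26.9, 24.5 and 22.8 CPM with quizartinib in RPMI (0.78 ± 0.09). It was at 10.3, 9.11 and 9.78 CPM with vehicle and 18.1, 21 and 23.4 CPM with quizartinib in hBMSC-CM (1.08 ± 0.09, adjusted p = 2.32e-09). This was the largest rise of any member in hBMSC-CM. ZNF473 (18 fingers) was among those that fell in both media. ZNF888 rose from 54.4, 57.5 and 60.2 CPM to 88.7, 82.4 and 82.9 CPM in RPMI (0.56 ± 0.05).

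**Figure D3:**
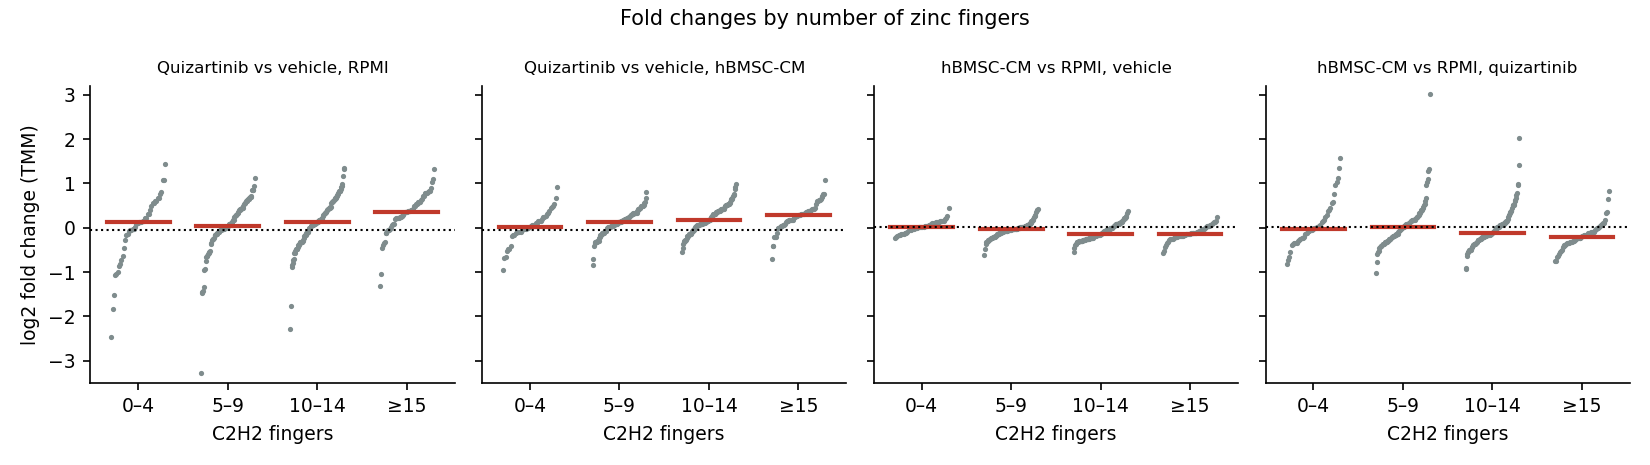
Log2 fold change of each member (points, y axis) by its number of C2H2 fingers (x axis) in the 4 pairwise comparisons, with the median of each class (red line) and that of genes of at least 5 CPM (dotted line). Members with 15 or more fingers (n = 58) have medians of 0.36 and 0.28 for quizartinib in RPMI and hBMSC-CM and of −0.13 and −0.20 for hBMSC-CM with vehicle and with quizartinib.

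Members of chromosome 19 were higher in 60 and lower in 25 of 106 cases in RPMI (median 0.27), and the 181 members placed on other chromosomes in 86 and 47 (median 0.12). This class overlaps with KRAB. On chromosome 19, 50 of 86 KRAB members were higher and 17 lower (median 0.27), against 9 and 8 of 19 without KRAB (median 0.12). On other chromosomes the medians were 0.15 with KRAB and 0.08 without. The 547 genes of chromosome 19 of at least 5 CPM without a ZNF name went the other way on balance, with 188 higher and 243 lower (median −0.09). Within the member clusters of chromosome 19 (neighbours less than 1 Mb apart, at least 8 members), the 29 members between 55576774 and 58481230 had 16 higher and 8 lower. The 17 between 51571283 and 53461862 had 9 higher and 4 lower, the 12 between 43596392 and 45076478 had 7 and 2, and the 10 between 11483427 and 12640098 had 6 and 1. The 10 members of the cluster on chromosome 16 (30378106 to 31917357) had 5 higher and 3 lower. The 8 members of the cluster on chromosome 7 (149069641 to 149624752) had 2 higher and 2 lower. In the order given, 55.2%, 52.9%, 58.3%, 60%, 50% and 25% of each cluster were higher, with medians of 0.27, 0.20, 0.44, 0.28, 0.15 and −0.01. Of all tested genes, 40.1% were higher and 39.2% lower, so that the chromosome 7 cluster lay below the first share. Differences between clusters were not tested. Named members of opposite direction shared a cluster, such as ZNF749 and ZNF584 (lower) and ZNF446 (higher, 0.56 ± 0.10) in the largest.

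Chromosome 19 also held most of the ZNF genes that fell outside the rule for lack of counts. Of 502 protein-coding ZNF names in the annotation 95 had no count in any library, and 64 of these were among the 242 on chromosome 19. Of the 36 coding ZNF genes of its cluster from 19.7 to 24.1 Mb, 9 were members, among them ZNF714 at a mean of 64.1 CPM, ZNF431 at 61.4 CPM and ZNF430 at 36 CPM, while 20 had no count in any library. From ZNF43 to ZNF91 (21804946 to 23395471), 13 neighbours in a row held 1 count together among 296472077 counts of the 12 libraries. In the cluster from 55.5 to 58.5 Mb, 29 of 59 were members and 14 had no count. ZNF91 and ZNF93, which silence SVA and LINE-1 retroelements in human cells, were both at 0 counts. Whether these zeros come from the cells, from reads shared between near-identical copies or from the matching of names cannot be told apart in this table.

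**Figure D4:**
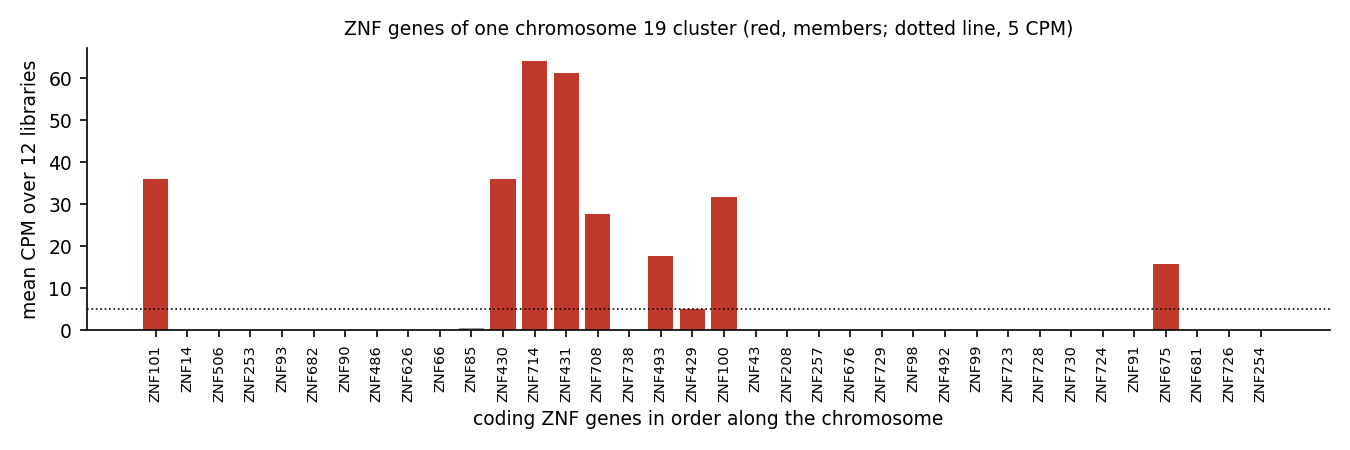
Mean CPM over the 12 libraries (y axis, bars from 0) of the 36 coding ZNF genes of the chromosome 19 cluster from 19.7 to 24.1 Mb, in their order along the chromosome (x axis), with members in red and 5 CPM as a dotted line. The 9 members stand among genes with no or almost no count, with ZNF714 at 64.1 CPM as the tallest bar.

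The comparison of quizartinib with vehicle in hBMSC-CM addressed the drug response in stroma-conditioned medium. It set other libraries against each other than the comparison in RPMI, but both took their spread and scaling from 1 fit over all 12 libraries. Here 146 of 288 members were higher and 37 lower, or 50.7% and 12.8%, where 33.4% of all tested genes were higher and 33.7% were lower. The median log2 change of the members was 0.16, against 0.01 over all tested genes and −0.04 over genes of at least 5 CPM. Under upper-quartile factors the counts were 176 and 28. Without the first quizartinib replicate they were 139 and 37, and without the third vehicle replicate 138 and 39. Members took 0.962% ± 0.00456 (SD, n = 3) of counts in the vehicle group. In the quizartinib group they took 1.14% ± 0.0175 (SD, n = 3), again of unscaled counts. Higher in both media were 125 members, of 147 in RPMI and 146 in hBMSC-CM. Lower in both were 36, of 72 in RPMI and 37 in hBMSC-CM. A further 35 of the 72 were not called in hBMSC-CM, and 1 was higher. Among all tested genes, 3791 of 5211 higher in RPMI were higher in hBMSC-CM, and 3916 of 5096 lower in RPMI were lower in hBMSC-CM.

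Changes in hBMSC-CM were smaller in range. The largest fall was −0.95 ± 0.06 (ZNF367) and the largest rise 1.08 ± 0.09 (ZNF493), against −3.28 and 1.44 in RPMI. After ZNF493, the named rises were ZNF846 (0.98), ZNF251 (0.93), ZNF385A (0.92) and ZNF439 (0.86). The named falls were ZNF584 (−0.84), ZNF473 (−0.71), ZNF239 (−0.70) and ZNF593 (−0.69). ZNF439, a KRAB member of chromosome 19, was at 7.45, 6.96 and 6.17 CPM with vehicle and 12.6, 13.9 and 11.2 CPM with quizartinib, with no overlap. ZNF584 was at 20.4, 21.2 and 21.5 CPM with vehicle and 11.9, 12.4 and 10.8 CPM with quizartinib.

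The interaction (the change with quizartinib in hBMSC-CM minus that in RPMI) tests whether the drug response differed between media. It was called above 0 in 61 members and below 0 in 40, or 21.2% and 13.9%, where 26.1% of all tested genes were called above and 19.2% below. Without the first quizartinib replicate in hBMSC-CM 57 and 33 were called, and without the third vehicle replicate there 62 and 43. Without the 4 members that passed the limit only through quizartinib in RPMI, 61 and 37 of 284 were called. The median interaction was 0.02, against 0.01 over all tested genes.

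The largest values above 0 were ZNF239 (2.58 ± 0.18, adjusted p = 1.7e-10), ZNF485 (1.81 ± 0.13), ZNF367 (1.51 ± 0.08), ZNF692 (1.34 ± 0.10) and ZNF749 (1.21 ± 0.12). ZNF692, one of the named falls in RPMI, was at 49.5, 42.7 and 50.1 CPM with vehicle in hBMSC-CM and 46.1, 41.8 and 45.4 CPM with quizartinib, so that these groups overlapped (adjusted p = 0.207). The largest below 0 were ZNF296 (−1.08 ± 0.22, a member only through its quizartinib level in RPMI), ZNF436 (−0.65 ± 0.09), ZNF688 (−0.62 ± 0.15), ZNF438 (−0.57 ± 0.13) and ZNF555 (−0.56 ± 0.12). ZNF296, studied in mouse pluripotent cells, was at 5.37, 4.34 and 4.43 CPM with vehicle in RPMI and 8.46, 11.6 and 10.8 CPM with quizartinib. In hBMSC-CM it was at 5.05, 5.51 and 4.27 CPM with vehicle and 3.85, 5.49 and 6.14 CPM with quizartinib, with full overlap (adjusted p = 0.852).

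**Figure D5:**
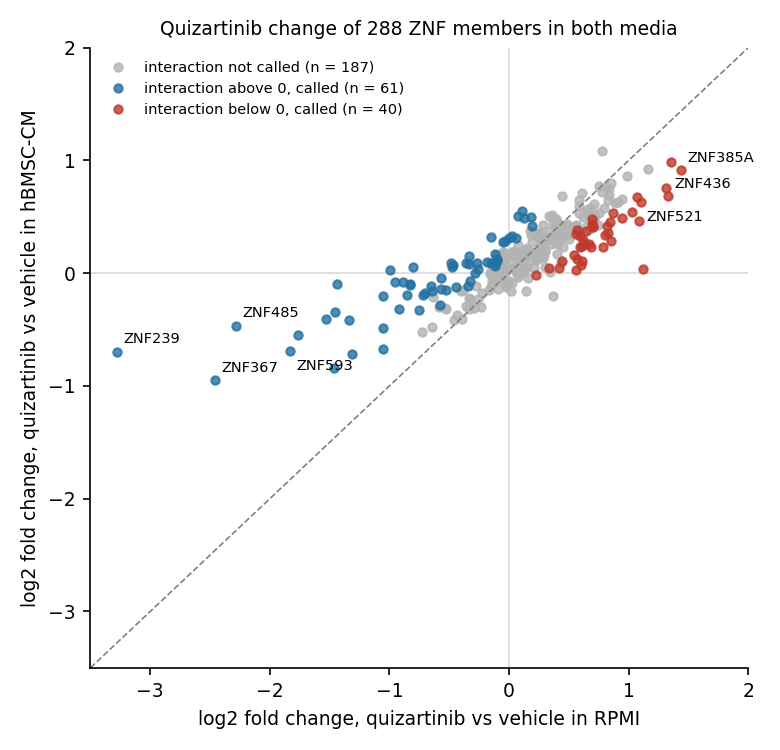
Log2 fold change with quizartinib in hBMSC-CM (y axis) against that in RPMI (x axis) for the 288 members, coloured by the call of the interaction, with the line of equal change dashed. The 61 members with an interaction called above 0 lie above the line, ZNF239 farthest (−3.28 in RPMI, −0.70 in hBMSC-CM), and the 40 with an interaction called below 0 lie under it.

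The comparison of hBMSC-CM with RPMI in quizartinib-treated cells addressed what the conditioned medium changed under FLT3 inhibition. More members were lower than higher in hBMSC-CM, with 121 lower and 68 higher of 288 (42% and 23.6%), where 34.3% of all tested genes were lower and 35.5% higher. The median log2 change was −0.10, against 0.00 over all tested genes and 0.02 over genes of at least 5 CPM. This balance did not hold when low-count genes were kept, with 80 members lower and 84 higher and a median of −0.03. Without the first quizartinib replicate in hBMSC-CM there were 111 lower and 67 higher. The gap to the median of genes of at least 5 CPM was −0.12, both in the main setting and when low-count genes were kept. Without the first quizartinib replicate in RPMI the gap was −0.077 and the median −0.067. KRAB members had 76 lower and 36 higher (median −0.13), members without KRAB 41 lower and 31 higher (median −0.03), and members with 15 or more fingers 35 lower and 6 higher (median −0.20).

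In hBMSC-CM 11 members were at least 2-fold higher and 1 at least 2-fold lower. Among all tested genes 929 were higher and 354 lower by as much, and among those of at least 5 CPM 684 and 168. The 11 members were ZNF239 (3.01 ± 0.15), ZNF485 (2.04 ± 0.11), ZNF593 (1.59 ± 0.09), ZNF749 (1.42 ± 0.09), ZNF367 (1.35 ± 0.07), ZNF692 (1.32 ± 0.07), ZNF232 (1.28 ± 0.07), ZNF114 (1.12 ± 0.12), ZNF202 (1.11 ± 0.08), ZNF783 (1.03 ± 0.09) and ZNF584 (1.03 ± 0.09). The quizartinib libraries in RPMI that enter here also enter the drug comparison in RPMI, so that a gene low in them moves in both. The lower members were led by ZNF296 (−1.02 ± 0.15), ZNF846 (−0.93 ± 0.09), ZNF436 (−0.90 ± 0.06), ZNF688 (−0.81 ± 0.10), ZNF641 (−0.76 ± 0.05) and ZNF888 (−0.75 ± 0.05). ZNF296, the 1 member at least 2-fold lower, is a member only through its quizartinib level in RPMI, which enters here. Without the 4 such members, 118 of 284 were lower and 68 higher. ZNF641, a KRAB member, was at 49.5, 48.1 and 48.5 CPM in RPMI with quizartinib and 28.1, 28.5 and 29.7 CPM in hBMSC-CM with quizartinib. ZNF783, a KRAB member of the chromosome 7 cluster, was at 8.3, 8.52 and 7.62 CPM against 14.9, 16.5 and 19 CPM.

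In vehicle-treated cells the medium changed fewer members and by less. Of 288 members 74 were lower and 24 higher in hBMSC-CM (25.7% and 8.33%), where 15.5% of all tested genes were lower and 16.6% higher. No member changed by 2-fold. Such changes were few in all: 99 of the 12998 tested genes were higher and 82 lower by as much. Among the 10381 of at least 5 CPM, 50 were higher and 27 lower. The median log2 change was −0.07, against −0.00 over all tested genes and 0.01 over genes of at least 5 CPM. Under upper-quartile factors there were 91 lower and 15 higher. Without the first vehicle replicate in RPMI 10 were higher, without the second 15, and without the third 49 were lower. Without the third vehicle replicate in hBMSC-CM 60 were lower and 22 higher. KRAB members accounted for most of the lower calls, with 54 lower and 6 higher of 172 (median −0.13), while members without KRAB had 17 lower and 17 higher of 110 (median −0.02). Chromosome 19 members had 37 lower and 4 higher. Of these, KRAB members had 33 lower and 2 higher of 86 (median −0.16), and members without KRAB 3 lower and 2 higher of 19 (median 0.09). KRAB members of other chromosomes had 21 lower and 4 higher (median −0.09). The chromosome 19 cluster from 51571283 to 53461862 had 11 lower and 0 higher of 17 (6 of the 17 not called). The cluster from 55576774 to 58481230 had 2 lower and 4 higher of 29.

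The largest decreases with vehicle were ZNF789 (−0.61 ± 0.09, adjusted p = 1.49e-05), ZNF493 (−0.57 ± 0.10), ZNF846 (−0.56 ± 0.11), ZNF888 (−0.53 ± 0.05) and ZNF469 (−0.47 ± 0.11). ZNF888 was at 54.4, 57.5 and 60.2 CPM in RPMI and 39.7, 40.2 and 39.3 CPM in hBMSC-CM, without overlap. ZNF469, known from brittle cornea syndrome, was at 22.1, 19.6 and 21.8 CPM and at 16.6, 15.6 and 13.2 CPM. The largest increases were ZNF286B (0.46 ± 0.10), ZNF593 (0.45 ± 0.07), ZNF239 (0.43 ± 0.09), ZNF584 (0.40 ± 0.07) and ZNF579 (0.40 ± 0.12). ZNF286B, listed as non-coding, was at 6.22, 7.35 and 6.87 CPM in RPMI and 9.1, 9.76 and 9.3 CPM in hBMSC-CM.

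The medium comparisons with vehicle and with quizartinib set different libraries against each other, within the same fit over all 12 libraries. Lower in hBMSC-CM in both were 53 members, of 74 with vehicle and 121 with quizartinib, and 4 of the 74 were higher with quizartinib. Higher in both were 19 members, of 24 and 68. Among all tested genes 1524 were lower in both, of 2012 with vehicle and 4463 with quizartinib, and 1783 were higher in both, of 2162 and 4613.

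The members were also read by their roles, from lists chosen with earlier results known, so that their counts are a description. With quizartinib in RPMI they stand beside the 40.1% of all tested genes that were higher and the 39.2% that were lower. Of 6 tested adaptors of chromatin complexes, 4 rose with quizartinib in RPMI and none fell. ZNF516, which links DNA-bound complexes to the demethylase LSD1, was at 118, 115 and 115 CPM with vehicle and 199, 214 and 204 CPM with quizartinib (0.82 ± 0.04, adjusted p = 8.1e-14). ZNF217, a partner of the CoREST complex, was at 156, 146 and 153 CPM and at 235, 238 and 226 CPM (0.62 ± 0.06). ZNF592 and ZNF687, which bind the ZMYND8 complex, rose by 0.41 ± 0.06 and 0.25 ± 0.05. ZNF644 gave 0.10 ± 0.05 (adjusted p = 0.0545), and ZNF219, under 5 CPM, gave 0.14.

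The 6 activators and promoter factors moved little with quizartinib in RPMI. ZNF143, which binds many housekeeping promoters, fell from 35, 36.2 and 35.7 CPM to 29.8, 27.8 and 26.6 CPM in RPMI (−0.34 ± 0.06). ZNF24 and ZNF148 both rose by 0.12 (SEs 0.04 and 0.05), while ZNF76 (0.08), ZNF281 (−0.06) and ZNF410 (0.05, under 5 CPM) were not called. In hBMSC-CM 4 of the 6 rose and none fell, ZNF410 the most (0.41 ± 0.14), where 33.4% of all tested genes were higher and 33.7% lower. Of the 7 proteins of RNA processing and RNA binding, 3 rose (ZNF385A, ZNF638 and ZNF830), 1 fell (ZNF207) and 3 were not called (ZNF106, ZNF326 and ZNF346).

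Of 13 KRAB factors known for silencing of retroelements or imprinted genes, 7 were members. In RPMI 3 of them rose with quizartinib and none fell, and in hBMSC-CM 4 rose and none fell, where 33.4% of all tested genes were higher and 33.7% lower. ZNF274, which brings SETDB1 to the ends of ZNF genes, was at 18.1, 16.7 and 16.4 CPM with vehicle in RPMI and 23.3, 22.1 and 21.8 CPM with quizartinib (0.39 ± 0.07). ZNF33A rose by 0.37 ± 0.05 and ZNF41 by 0.21 ± 0.05. ZNF445, which protects imprints, gave 0.06 ± 0.05 in RPMI (adjusted p = 0.33) and rose by 0.17 ± 0.05 in hBMSC-CM. ZNF268, ZNF649 and ZNF765 were not called with quizartinib in RPMI. Of the 3 tested members of the blood-cell and p53 list, ZNF420 (APAK), an inhibitor of p53, rose by 0.40 ± 0.11. ZNF589, described in hematopoietic stem cells, was at 61 to 69.1 CPM with vehicle and 68.6 to 78.5 CPM with quizartinib in RPMI (adjusted p = 0.0523), and was at 89.5, 97 and 95.9 CPM with quizartinib in hBMSC-CM against 65 to 70.7 CPM with vehicle there (0.49 ± 0.06).

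Genes linked to the silencing of chromatin, among them cofactors of KRAB proteins, were counted beside them. The list also held NR2C1 and NR2C2, which rose by 0.18 and 0.46 with quizartinib in RPMI. Of 20 such genes, 8 were higher and 12 lower with quizartinib in RPMI (median −0.20), and 7 were higher and 8 lower in hBMSC-CM (median −0.04). Of all tested genes 40.1% were higher and 39.2% lower in RPMI, and 33.4% and 33.7% in hBMSC-CM. TRIM28, the corepressor that KRAB domains bind, fell from a mean of 579 to 365 CPM in RPMI (−0.66 ± 0.05, adjusted p = 3.05e-11) and from 550 to 378 CPM in hBMSC-CM (−0.54). DNMT1 and UHRF1, of maintenance DNA methylation, had log2 changes of −1.36 and −1.17 in RPMI, and CBX3 (HP1 gamma) of −0.92. SETDB1, the H3K9 methyltransferase, rose by 0.38 ± 0.04, its partner ATF7IP by 1.19 ± 0.06 and the remodeller CHD3 by 1.04 ± 0.05.

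Other zinc finger families were counted beside the members. With quizartinib, 40.1% of all tested genes were higher and 39.2% lower in RPMI, and 33.4% and 33.7% in hBMSC-CM. All 20 tested ZSCAN and ZKSCAN genes were either higher with quizartinib in RPMI (16) or not called (4), with a median of 0.41, and in hBMSC-CM 15 were higher and 0 lower (5 were not called). With quizartinib 10 of the 20 were lower in hBMSC-CM than in RPMI and 0 were higher, where 34.3% of all tested genes were lower and 35.5% higher. Of 35 ZBTB genes 19 were higher and 9 lower in RPMI (median 0.20), of 13 ZFP genes 4 and 5 (median −0.10), and of 11 KLF genes 5 and 4 (median 0.28).

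Several features of the libraries moved with the drug. TMM factors were 0.956 to 0.978 in vehicle and 1.02 to 1.04 in quizartinib libraries. Mitochondrially encoded genes held 0.683% to 0.79% of counts with vehicle and 1.02% to 1.1% with quizartinib in RPMI, and 0.458% to 0.613% and 0.683% to 0.947% in hBMSC-CM. All 10 myeloid markers were at 1 CPM or more in each group, and their sum was 1065 to 1094 CPM with vehicle and 1491 to 1506 CPM with quizartinib in RPMI, and 1326 to 1356 CPM and 1901 to 2029 CPM in hBMSC-CM. Single markers went both ways: FLT3 (mean 209 to 454 CPM) was among those that rose in RPMI, ITGAM (22.6 to 11.3 CPM) and CEBPA (222 to 168 CPM) fell, and LYZ went from 503 to 1010.0 CPM in hBMSC-CM. Of 8 stromal markers 5 were at 0, and their sum was at most 0.89 CPM with vehicle and at most 5.42 CPM with quizartinib (COL1A1 had a mean of 4.61 CPM with quizartinib in RPMI). Sums of 3 B cell, 3 T cell and 3 red cell markers stayed at or under 1.23, 3.62 and 0.0977 CPM. The part of these values in the members' changes was not tested, and fewer cells of a kind cannot be told apart from less RNA per cell in such bulk samples.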

How the data were processed

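Poly-A RNA of MOLM-13 cells was measured in 12 libraries, 3 in each of 4 groups taken from the labels, and 0 columns of the table were left without a sample. The authors trimmed adapters with BBDuk, aligned reads to hg38 with STAR (version 2.6.0a, per the submitters' processing notes), summed the identifiers of each gene name, and the deposited values are raw counts. Multi-mapped and overlapping reads cannot be reassigned from such a table.

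The filter kept genes whose raw count and CPM both averaged 1 or more (12998 of 57353), and all 288 members passed. Counts were scaled by TMM (with library sizes over the tested genes, also for the CPM of single genes) and tested with edgeR 4.0.16 (glmQLFit, glmQLFTest; R 4.3.3), where the study used limma, in a model of 4 group means with 8 residual degrees of freedom. Contrasts were two-sided, with Benjamini-Hochberg adjustment over all tested genes and a threshold of 0.05. SEs were the fold change over the root of the F statistic. Replicates in a group differed by more than sampling noise. The script was tested on simulated data.

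Positions came from GENCODE 44 (GRCh38, the authors' build in another release). KRAB matches came from a profile of 238 windows of 40 residues (pyhmmer 0.12.3, E value limit 0.0001) searched over 20262 translated GENCODE coding sequences, since RefSeq proteins were not used here. Fingers were counted by the spacing of cysteines and histidines.

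The members, role lists and tests were chosen with earlier results of these data known. Named were the 10 largest changes in each direction for the drug in RPMI and the medium under quizartinib, and 5 for the other comparisons, among called members whose groups do not overlap (interaction: called only). The 5 most abundant members, the role lists and the limits of the rule were added, and not every listed gene is described.

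Alternatives were DESeq2 1.42.0 (size factors, Wald test), upper-quartile and library-size scaling, limma 3.58.1 (voom, trend), other filters and member limits, fewer groups, a replicate block and each library left out.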

Additional observations from a re-analysis of the deposited data

Results flagged for a closer look

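Of the 37 members named by size of change or abundance, 27 had a quizartinib response that differed between hBMSC-CM and RPMI by the interaction term (edgeR quasi-likelihood test, Benjamini-Hochberg adjusted p under 0.05 over all tested genes). Among all 288 members 101 were called, and among all 12998 tested genes 26.1% were called above 0 and 19.2% below. For the interaction itself 10 members were named because it was called, so that part of the count was fixed by the choice. Values are log2 differences, the change in hBMSC-CM minus that in RPMI, with 3 libraries in each group. The difference was above 0 for ZNF239 (2.58), ZNF485 (1.81), ZNF367 (1.51), ZNF692 (1.34), ZNF749 (1.21), ZNF593 (1.14), ZNF114 (1.13), ZNF202 (1.10), ZNF783 (1.02), ZNF232 (0.93), ZNF584 (0.62) and ZNF473 (0.60). Each of these had fallen in RPMI. The difference was below 0 for ZNF296 (−1.08), ZNF436 (−0.65), ZNF688 (−0.62), ZNF438 (−0.57), ZNF555 (−0.56), ZNF699 (−0.55), ZNF446 (−0.53), ZNF385A (−0.52), ZNF429 (−0.49), ZNF521 (−0.47), ZNF579 (−0.44), ZNF277 (−0.39), ZNF641 (−0.39), ZNF846 (−0.37) and ZNF888 (−0.22). Each of these had risen in RPMI. The members were named partly for large changes in the same libraries, so that the sizes are a description. ZNF239 was the largest in the first set and ZNF296 in the second. ZNF296, ZNF429 and ZNF579 are members only through their quizartinib level in RPMI. Single values far from their group were not looked for by gene, since each group had 3 libraries.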

How the results depend on the processing

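No member called in the 5 comparisons changed sign under another scaling, test, filter or set of groups, but some lost their call. Without a filter on low counts, 193 of 219 stayed called for the drug in RPMI and 148 of 189 for the medium with quizartinib. Under the DESeq2 Wald test 84 of 98 stayed called for the medium with vehicle. Upper-quartile factors moved the median of all genes by about 0.10 for quizartinib in RPMI (from 0.02 to 0.13), and the members' medians with it, to 0.26 in RPMI, 0.24 in hBMSC-CM, −0.15 for the medium with quizartinib, −0.10 for the medium with vehicle (15 members higher) and −0.0025 for the interaction. With library size only the drug medians were 0.25 in RPMI and 0.27 in hBMSC-CM. Without a filter on low counts they were 0.054 and 0.13, with −0.026 and 80 members lower for the medium under quizartinib, and a median of 0.088 and 23 members below 0 for the interaction. With a filter at 5 CPM the drug medians were 0.21 and 0.20. Members taken at 1 CPM gave 0.18 for the drug in RPMI and −0.13 for the medium with quizartinib, and at 10 CPM 0.14 and −0.081. A scaling shifts all genes alike, so that it moves these medians and not the gap between members and other genes. Without a filter the gap to genes of at least 5 CPM was 0.19 for the drug in RPMI and −0.12 for the medium with quizartinib. With the filter it was 0.19 and −0.12, so that the medians moved and this gap did not. The cause of the shifts without a filter was not tested.

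Leaving out each library in turn gave 137 to 149 higher and 67 to 72 lower for the drug in RPMI (median 0.15 to 0.18), and 133 to 146 and 32 to 39 in hBMSC-CM (0.16 to 0.17). It gave 63 to 71 higher and 108 to 124 lower for the medium with quizartinib (−0.11 to −0.067, the last without the first quizartinib replicate in RPMI), 10 to 28 and 49 to 74 with vehicle (−0.08 to −0.06), and 52 to 63 and 33 to 44 for the interaction (−0.012 to 0.033). Among the repeats of named fold changes 1527 kept their call, and ZNF579 for the medium with vehicle lost it in 3. The replicate numbers did not pair the libraries (18 same-numbered pairs, r between −0.227 and 0.0979), and with the replicate number as a block the counts were 145 and 71, 144 and 38, 69 and 120, 24 and 70, and 61 and 37.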
